A study of Mus musculus with 104 samples.

Results

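The data described here are 24 of the 104 experiments of a study of DNA breaks in mouse embryonic stem cells and the neural progenitor cells grown from them. They are all of its experiments in neural progenitor cells that received only DMSO, the vehicle of the treatments elsewhere in the study. They were chosen by those labels and by the chromosome of the bait break. In 8 experiments the bait break lay on chromosome 7, in 8 on chromosome 12 and in 8 on chromosome 15, called bait 7, bait 12 and bait 15 below. For each bait, 4 experiments (A to D) came from line 1 and 4 from line 2. Every group had the strain C57BL/6/129SVE and the genotype Xrcc4-/- p53-/-, with no Xrcc4-proficient group among them, so all values are those of cells without both genes. The progenitors are labelled as induced from stem cells in culture. The assay reads DNA, so the labelled cell type could not be checked against expressed markers. The labels do not say that the experiments of a group came from separate cultures, so p-values measure the spread between experiments, which may be technical.

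High-throughput genome-wide translocation sequencing (HTGTS) amplifies DNA outward from a break made at a known place, the bait, and reads what the broken end was joined to, the prey. Most broken ends are rejoined nearby after some loss of bases, and some meet a break elsewhere on the same chromosome or on another one. Xrcc4 works with DNA ligase IV in classical non-homologous end joining. Without it, ends are joined by alternative routes that often use short stretches of identical bases, called microhomology. p53, encoded by Trp53, halts or kills cells with unrepaired breaks, and cells that lack both proteins survive with many joined breaks. Baits on different chromosomes are used side by side because each one sees its own surroundings and the same rest of the genome.

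The 24 experiments held 584038 junctions, 10936 to 51063 in each, and no read name occurred again within a table. The 17 chromosomes that carry no bait held 131815 of them, 1381 to 17462 in each experiment. In line 1 this was 10908 junctions for bait 7, 18910 for bait 12 and 29331 for bait 15, and in line 2 it was 16109, 9678 and 46879 in the same order, so values of bait 15 rest on the most junctions. The reads came from 14 sequencing runs, and 0 of these held more than 1 bait, so run and bait cannot be told apart in any comparison below. Between 2 experiments of the same line and bait, at most 5.09% of the smaller's junctions on chromosomes without a bait were shared. The highest values were 5.09% for B and D and 4.84% for A and C of bait 7 in line 2. Junctions on the bait chromosomes were not part of this count. Earlier results of these data had set 4 experiments apart, namely A and D of bait 15 in line 2, B of bait 12 in line 1 and C of bait 7 in line 1. Their values are named where they touch a result, and results with and without them are given together.

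The letters around each bait break are shown because prey sites described further on are set against them. The break was placed after the last bait base before the largest drop in the number of bait alignments that end there. Coordinates are mm9. In each run of 60 letters, read along the bait from 5′ to 3′, capitals mark the bait bases up to the break and lower case the bases beyond it.
bait 7 (chr7:80451924-80451983, - strand): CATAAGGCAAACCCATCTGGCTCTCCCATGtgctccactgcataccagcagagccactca
bait 12 (chr12:13000829-13000888, + strand): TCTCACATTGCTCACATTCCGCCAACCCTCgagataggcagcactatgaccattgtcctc
bait 15 (chr15:86848178-86848237, + strand): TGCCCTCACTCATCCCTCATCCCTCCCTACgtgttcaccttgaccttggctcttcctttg
On the strand that the bait read does not show, each break lies beside a stretch that ends in 3 G. These 24 letters are given next, with the closing GGG in capitals. An NGG stretch is the motif that the nuclease Cas9 needs beside its target, and the labels used here do not name the nuclease.
bait 7, 24 letters (chr7:80451936-80451959, + strand): ctggtatgcagtggagcacatGGG
bait 12, 24 letters (chr12:13000854-13000877, - strand): tcatagtgctgcctatctcgaGGG
bait 15, 24 letters (chr15:86848202-86848225, - strand): caaggtcaaggtgaacacgtaGGG
Bait 7 is read towards the centromere, since it lies on the minus strand and mouse chromosomes have their centromere at the low coordinates. Baits 12 and 15 are read towards the far telomere. The breaks also differ in their place on the chromosome, counted to the last junction seen. Bait 7 had 80.5 Mb before it and 72.1 Mb after it, bait 12 had 13 Mb and 108 Mb, and bait 15 had 86.8 Mb and 16.6 Mb.

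Most junctions of every bait fell on the bait's own chromosome, and bait 15 kept fewer there than the other baits. For bait 7 the share was 84, 83.3, 82.5 and 86.1% in line 1 and 82.1, 81, 81.3 and 83.2% in line 2. For bait 12 it was 81.1, 72, 87.8 and 74.1% in line 1 and 85.8, 84, 86 and 78.8% in line 2. For bait 15 it was 67.3, 67.7, 66 and 65.9% in line 1 and 68.9, 67.6, 66.8 and 62.3% in line 2. No experiment of bait 15 reached the lowest of the others, while baits 7 and 12 overlapped, with B and D of bait 12 in line 1 low. The share of bait 7 exceeded that of bait 15 by 16.4 points and that of bait 12 exceeded it by 14.7 points (adjusted p = 0.00122 for both, exact permutation test within lines, two-sided, Benjamini-Hochberg over 18 comparisons of position). That p comes from the smallest value that 4900 arrangements can give, 0.000408. Between bait 7 and bait 12 the difference was 1.74 points (adjusted exact p = 0.457).

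When the 5 Mb on each side of the break were left out, all 3 baits differed. Of the junctions that remained, bait 7 had 18.3, 18.2, 18.6 and 16.6% on its own chromosome in line 1 and 17.5, 17.6, 16.3 and 17% in line 2. Bait 12 had 13.9, 11.5, 13 and 10.5% in line 1 and 13.9, 14.3, 15.3 and 14.9% in line 2. Bait 15 had 10.1, 10.7, 9.85 and 10.3% in line 1 and 11.9, 10.6, 9.99 and 12.6% in line 2. Bait 7 stood above both others in every experiment, and baits 12 and 15 overlapped in line 1 only. The share of bait 7 was 4.07 points above bait 12 and 6.73 points above bait 15, and bait 12 was 2.66 points above bait 15 (adjusted p = 0.00122, 0.00122 and 0.0021, exact permutation test).

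The chromosomes differ in length, and per length the order of baits 7 and 12 differed between the lines. Counted per 500 kb bin and divided by the mean of the bins on chromosomes without a bait, bait 7 had 3.92 ± 0.27 in line 1 and 3.68 ± 0.166 in line 2 on its own chromosome outside the 5 Mb (SD, n = 4 each). Bait 12 had 3.14 ± 0.425 and 3.85 ± 0.199, and bait 15 had 3.08 ± 0.12 and 3.42 ± 0.402. The ranges of the experiments overlapped for every pair of baits in both lines, except for baits 7 and 15 in line 1, where bait 7 had 3.52 to 4.1 and bait 15 had 2.94 to 3.23. On the chromosomes of the other 2 baits the same ratio averaged 0.844 to 0.962, below 1 for each bait and line. This ratio was worked out after the shares were known, and no test was run on it.

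**Figure D1:**
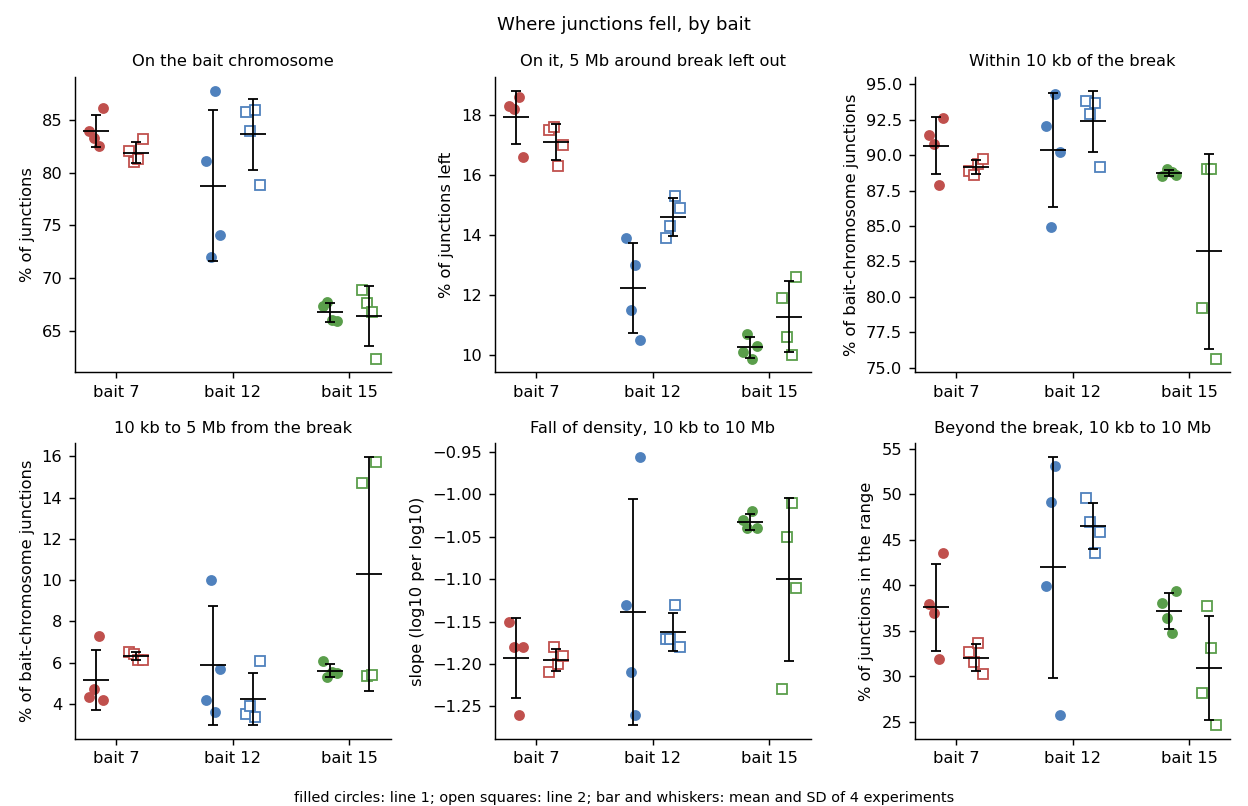
Position of junctions by bait, 1 point per experiment (filled circles line 1, open squares line 2), with the mean and SD of 4 experiments. The panels show percent of junctions on the bait chromosome, the same with 5 Mb around the break left out, percent of the bait-chromosome junctions within 10 kb and from 10 kb to 5 Mb, the slope of log10 density on log10 distance, and the percent of junctions beyond the break from 10 kb to 10 Mb. Bait 15 lies below the other baits in the first panel, at 62.3 to 68.9%.

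Bait 15 also had the smallest share of its bait-chromosome junctions close to the break. Of the junctions on the bait chromosome, those within 10 kb made up 90.7% ± 1.99 and 89.1% ± 0.522 for bait 7 in lines 1 and 2, 90.4% ± 4.03 and 92.4% ± 2.17 for bait 12, and 88.7% ± 0.229 and 83.2% ± 6.88 for bait 15 (SD, n = 4 each). A and D of bait 15 in line 2 stood apart at 79.2 and 75.6%, against 89 and 89% in B and C. The share of bait 7 was 3.95 points above bait 15 (adjusted p = 0.0387, exact permutation test) and that of bait 12 was 5.44 points above it (adjusted p = 0.0375). Without the 4 experiments set apart these differences were 1.51 points (adjusted exact p = 0.0218) and 3.44 points (adjusted p = 0.00429). For bait 7 against bait 15 the call ended when any 1 experiment of bait 15 in line 1, of bait 7 in line 2, or A, B or D of bait 7 in line 1 was left out (adjusted exact p = 0.0508 to 0.137). For bait 12 against bait 15 it ended without any 1 of bait 15 in line 1, A, B or C of bait 12 in line 2, or A or C of bait 12 in line 1 (adjusted exact p = 0.0508 to 0.102).

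Farther out, from 10 kb to 5 Mb, lay 5.15% ± 1.44 and 6.31% ± 0.199 of the bait-chromosome junctions for bait 7, 5.88% ± 2.92 and 4.23% ± 1.26 for bait 12, and 5.62% ± 0.321 and 10.3% ± 5.66 for bait 15. No pair passed the test (adjusted exact p = 0.241 to 0.488). The spread of bait 15 in line 2 came from A and D, at 14.7 and 15.7%, against 5.36 and 5.43% in B and C. In the pooled profile these extra junctions of line 2 showed as a shoulder out to about 1 Mb, which on the bait side began within 10 kb. At 5623 to 10000 bp on that side, bait 15 in line 2 had 0.546% per kb, against 0.189 to 0.267% in the other pools. In line 2, bait 15 had 5.31% of its bait-chromosome junctions at 10 to 100 kb and 4.91% at 100 kb to 1 Mb, and in line 1 it had 2.58 and 1.89%.

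**Figure D2:**
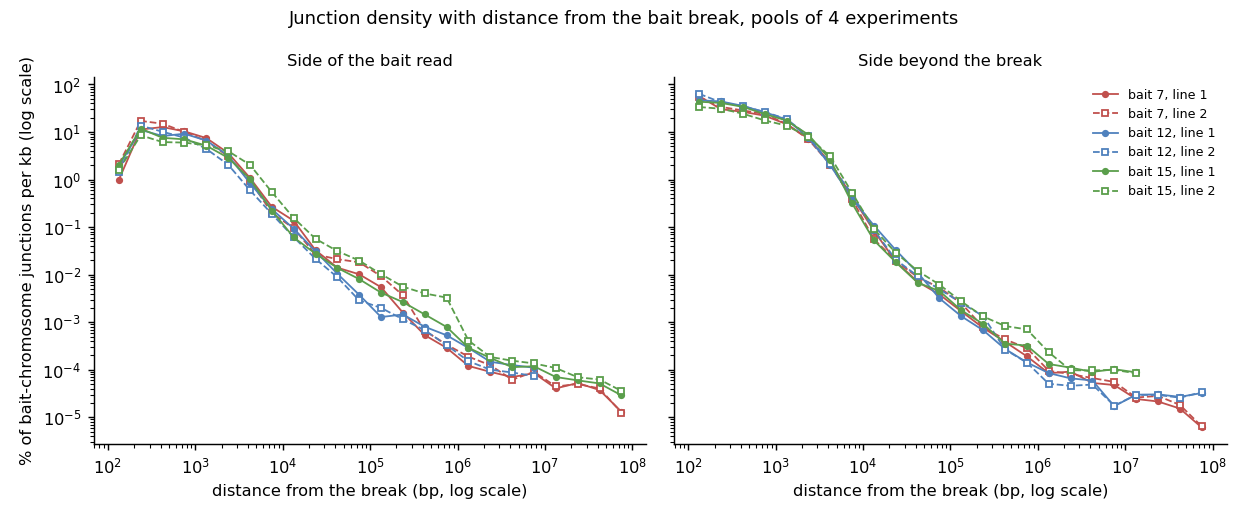
Junctions per kb, as percent of those on the bait chromosome, against distance from the break in bp, both on log scales, for the side that the bait read covers and the side beyond the break. Each line is the pool of 4 experiments of 1 bait and line. The curves of the 3 baits lie close together out to about 3162 bp. From there to about 1 Mb bait 15 in line 2 runs above the others on the bait side.

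From 10 kb to 10 Mb the density of junctions fell with distance by a power near 1 for every bait. The slope of log10 density per base on log10 distance averaged -1.19 for bait 7 in both lines, -1.14 and -1.16 for bait 12, and -1.03 and -1.10 for bait 15, so bait 15 fell least steeply over this range. Bait 7 differed from bait 15 by -0.126 (adjusted p = 0.00459, exact permutation test). In line 2 the experiments of baits 7 and 15 overlapped, since A of bait 15 had a slope of -1.23. Neither baits 7 and 12 (-0.0414, adjusted exact p = 0.305) nor baits 12 and 15 (-0.0848, adjusted p = 0.0869) passed. Leaving out D of bait 12 in line 1, whose slope was -0.956, gave -0.115 for baits 12 and 15 (adjusted exact p = 0.00882), and leaving out A of bait 15 in line 2 gave -0.106 (adjusted p = 0.0245). Over the range from 100 kb to 10 Mb alone the order was another, and bait 12 fell least steeply in both lines. The slopes were then -0.973 ± 0.0661 and -1.12 ± 0.0299 for bait 7, -0.824 ± 0.19 and -0.999 ± 0.0379 for bait 12, and -0.909 ± 0.024 and -1.05 ± 0.191 for bait 15 (SD, n = 4 each). Bait 7 differed from bait 12 by -0.138 (adjusted p = 0.0358, exact permutation test) and from bait 15 by -0.0689 (adjusted p = 0.301), and bait 12 differed from bait 15 by 0.0691 (adjusted p = 0.361).

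The side of the break on which junctions lay differed between baits when sides were named by the chromosome, and less so when they were named by the bait read. From 10 kb to 10 Mb, bait 7 had 62.4% ± 4.73 of its junctions on the telomere side in line 1 and 68% ± 1.44 in line 2, bait 12 had 41.9% ± 12.2 and 46.5% ± 2.56, and bait 15 had 37.1% ± 2.02 and 30.9% ± 5.7. Bait 7 was 21 points above bait 12 and 31.2 points above bait 15 (adjusted p = 0.00122 for both, exact permutation test), with no overlap in either line. For bait 7 the telomere side is the side that the bait read covers. Taken instead as the share beyond the break, the values were 37.6 and 32% for bait 7, 41.9 and 46.5% for bait 12, and 37.1 and 30.9% for bait 15. On that scale baits 7 and 15 differed by 0.788 points (adjusted exact p = 0.681 over 3 comparisons), and bait 7 differed from bait 12 by -9.4 points (adjusted p = 0.0361), or -7.26 points (adjusted p = 0.18) without the 4 experiments set apart. All baits thus had fewer than 50% of their junctions beyond the break on average in this range. Baits 12 and 15, which are read the same way, differed by 10.2 points (adjusted exact p = 0.0351), but by 0.971 points (adjusted p = 0.791) from 100 kb to 10 Mb. That call also ended without B or C of bait 12 or A, B or C of bait 15 in line 1 (adjusted exact p = 0.0508 to 0.0781), and without the 4 experiments set apart it was 6.75 points (adjusted p = 0.128).

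Within 10 kb the picture was turned round. There 72.2 and 72.5% of the junctions of bait 7 lay beyond the break in lines 1 and 2, as did 75.8 and 80.1% of those of bait 12 and 78.9 and 72% of those of bait 15. Of these, 86.5 to 87.4% had the prey on the strand of the bait read, which is how a break rejoined after loss of bases reads. On the bait side within 10 kb that strand had 12 and 12.7% for bait 7, 12.5 and 15.6% for bait 12, and 24.3 and 18.9% for bait 15. More than 5 Mb away, 48.8 to 56.3% of the prey had the strand of the bait read, so the bias near the break was nearly gone for every bait.

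From 10 kb to 5 Mb the bias was in between, and it was weakest for bait 15 beyond the break. There the prey had the bait strand in 74.1% ± 2.76 and 78.7% ± 2.46 of junctions for bait 7, in 77% ± 5.42 and 78.3% ± 1.31 for bait 12, and in 66% ± 2.85 and 67.3% ± 2.84 for bait 15. Bait 7 was 9.75 points and bait 12 was 11 points above bait 15 (adjusted p = 0.00122 for both, exact permutation test, 9 comparisons of strand), and the groups did not overlap in either line. On the bait side the share was 28.6 and 21.3% for bait 7, 36.8 and 34.6% for bait 12, and 31.8 and 30.2% for bait 15. Bait 7 was lowest there, with a difference of -10.8 points from bait 12 (adjusted exact p = 0.00184) and of -6.06 points from bait 15 (adjusted p = 0.00367). Bait 12 was 4.71 points above bait 15 (adjusted exact p = 0.0147), and 3.65 points (adjusted p = 0.191) without the 4 experiments set apart. On chromosomes without a bait, prey on the bait strand made up 52.6 and 53.6% for bait 7, 49.3 and 49.4% for bait 12, and 51.2 and 50.4% for bait 15. These differences were small, 3.77 points for bait 7 against bait 12, 2.3 points against bait 15 and -1.47 points for bait 12 against bait 15, and passed the test (adjusted exact p = 0.00122, 0.0022 and 0.0147).

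On chromosomes without a bait the joints mostly carried microhomology of 2 bases or more on average, for all 3 baits. Within 10 kb, where most junctions lay, 45 to 52.6% did. Overlap is the number of bases that the read assigns to both the bait and the prey. On chromosomes without a bait, 68.9% ± 1.4 and 67.8% ± 1.05 of the junctions of bait 7 had an overlap of 2 bases or more, as did 58% ± 12.5 and 63.5% ± 4.87 of those of bait 12 and 67.1% ± 0.603 and 66.3% ± 2.14 of those of bait 15. The commonest overlap was 2 bases, with 20.6 and 21% of junctions for bait 7, 19.5 and 20.3% for bait 12 and 21.5 and 22.1% for bait 15. Within 10 kb the share with 2 bases or more was lower, 52.6 and 49.9% for bait 7, 49.2 and 49.6% for bait 12, and 45 and 47.1% for bait 15. Bait 7 was 7.63 points above bait 12 on chromosomes without a bait (adjusted p = 0.0111, exact permutation test, 30 comparisons of structure) and 5.17 points above bait 15 within 10 kb (adjusted p = 0.0068). Without B of bait 12 in line 1 the first of these was 4.53 points (adjusted exact p = 0.0151).

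Experiment B of bait 12 in line 1 stood apart from the other 23. Its share with 2 bases or more was 39.3% on chromosomes without a bait, against 63.6, 63.6 and 65.4% in A, C and D. Its share of direct joins, with an overlap of 0, was 24.1%, against 6.71, 7.08 and 6.56%. In it 497 direct joins, 11.8% of its 4224 junctions on chromosomes without a bait, ended at the same bait base 2 bases past the break, at 494 positions on 17 chromosomes. In the other experiments the commonest bait end among direct joins had 8 to 90 reads. Direct joins made up 6.19 and 6.52% for bait 7, 11.1 and 7.26% for bait 12, and 5.85 and 5.98% for bait 15. The difference of bait 12 from bait 15 was 3.27 points (adjusted exact p = 0.0098) with B and 1.11 points (adjusted p = 0.0112) without it. That call ended without any 1 experiment of bait 15 in line 1 (adjusted exact p = 0.135 to 0.153) and without the 4 experiments set apart (1.23 points, adjusted p = 0.0786).

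Junctions with bases inserted between bait and prey were commonest for bait 12 on chromosomes without a bait, in both lines on average. They made up 14.6% ± 1.02 and 15.4% ± 0.94 for bait 7, 19.3% ± 0.659 and 19.6% ± 6.03 for bait 12, and 16.1% ± 0.439 and 16.9% ± 1.4 for bait 15. D of bait 12 in line 2 was low at 10.8%, against 20.8, 22.6 and 24.2% in A, B and C. Bait 7 differed from bait 12 by -4.44 points (adjusted p = 0.0271, exact permutation test), a call that ended without A of bait 7 or A, B or C of bait 12 in line 2 (adjusted p = 0.0531 to 0.0626). Bait 12 was 2.96 points above bait 15 (adjusted exact p = 0.0952), and 4.43 points (adjusted p = 0.00111) without D of bait 12 in line 2. Within 10 kb insertions made up 21.8 and 24.9% for bait 7, 24.8 and 23.1% for bait 12, and 26.4 and 25.1% for bait 15.

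The broken bait end had lost more bases for bait 7 than for bait 15 before it was joined. On chromosomes without a bait the median loss was 13, 14, 13 and 12 bases for bait 7 in line 1 and 15, 16, 14 and 19 bases in line 2. For bait 12 it was 9, 4, 9 and 22 bases in line 1 and 11, 12, 17 and 10 bases in line 2. For bait 15 it was 7, 8, 8 and 8 bases in line 1 and 9, 8, 8 and 11 bases in line 2. Every experiment of bait 7 was above every one of bait 15, and bait 12 spanned both. Bait 7 lost 6.12 bases more than bait 15 on chromosomes without a bait and 5 bases more within 10 kb (adjusted p = 0.00175 for both, exact permutation test). Bait 12 lost 3.88 bases more than bait 15 within 10 kb (adjusted exact p = 0.00175). From the usual start of the bait reads to the break there are 93 bases for bait 7, 130 for bait 12 and 79 for bait 15, which bounds the loss that can be seen. When only losses of up to 43 bases were kept for all baits, the last difference was 0.25 bases (adjusted exact p = 0.798).

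Ends joined without loss of a bait base were rarer for bait 7 than for bait 15. On chromosomes without a bait they made up 3.95, 4.16, 4.42 and 5.34% for bait 7 in line 1 and 3.91, 3.85, 4.6 and 1.75% in line 2. For bait 15 they made up 13.8, 12.9, 12.9 and 13.7% in line 1 and 12.5, 13.2, 12.8 and 10.3% in line 2. The groups were far apart, and the difference was -8.79 points (adjusted p = 0.00175, exact permutation test), with -7.46 points within 10 kb (adjusted p = 0.00175). For bait 12 the value depended on where its break was put, since its bait ends fell off in 2 steps 3 bases apart. With the break at the larger drop, 12.6, 35.6, 14.1 and 6.57% of the ends in line 1 and 11.5, 10.1, 6.15 and 12.9% in line 2 had lost none, and bait 7 differed from bait 12 by -9.69 points (adjusted exact p = 0.00175). With the break 3 bases on, the range was 0.913 to 6.23%, and bait 7 was 1.9 points above bait 12 (adjusted exact p = 0.0237).

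**Figure D3:**
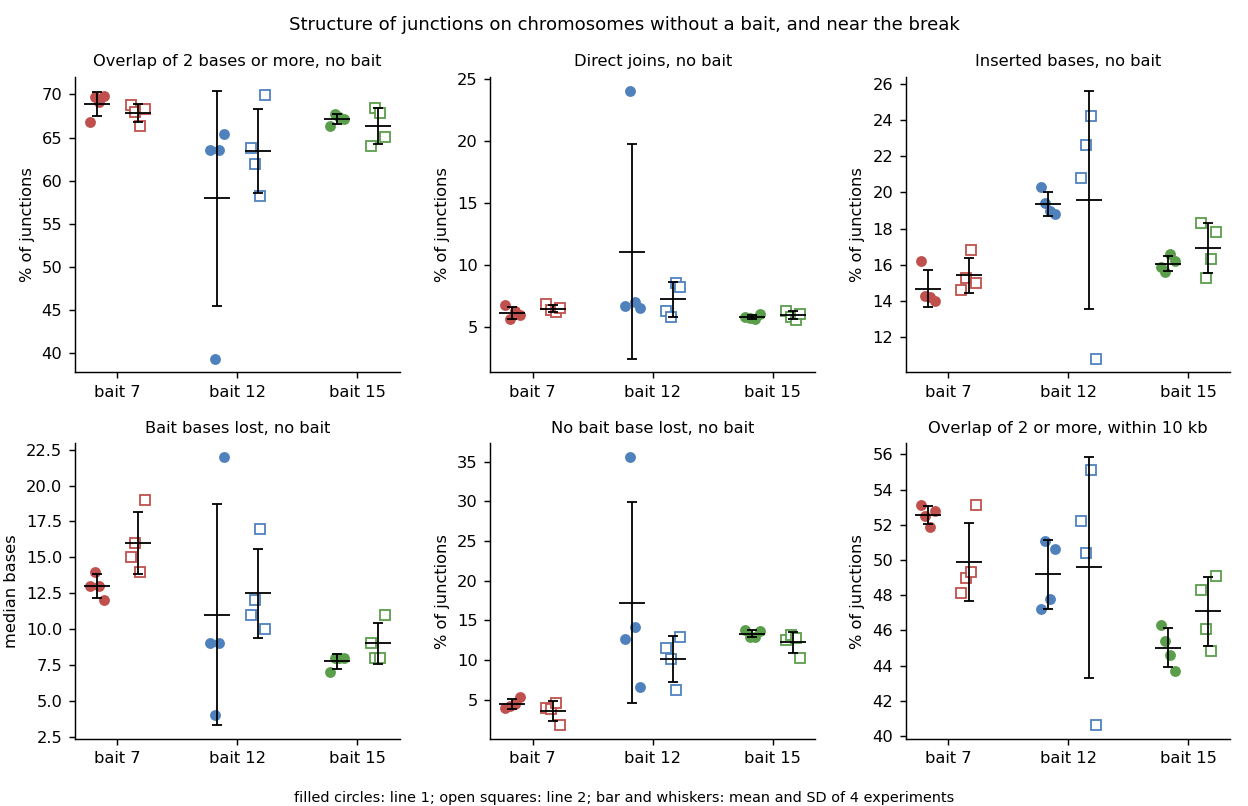
Structure of junctions by bait, 1 point per experiment (filled circles line 1, open squares line 2), with the mean and SD of 4 experiments. The panels show, for chromosomes without a bait, the percent with an overlap of 2 bases or more, of direct joins, of inserted bases, the median number of bait bases lost and the percent with none lost, and last the percent with an overlap of 2 or more within 10 kb. Bait 7 and bait 15 are apart in the panels on bait bases lost, and B of bait 12 in line 1 stands apart at 24.1% direct joins.

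On the 17 chromosomes without a bait the 3 baits saw a similar large-scale landscape. Chromosome 8 held 8.59% of these junctions for bait 7, 8.58% for bait 12 and 8.6% for bait 15 (mean of the lines), which is 1.5 times its share of the 500 kb bins for each bait. Chromosome 11 was also above its share, by 1.37, 1.28 and 1.4 times in the same order. Chromosome 19 was above it by 1.19, 1.4 and 1.25 times. The X chromosome was far below its share, at 0.404, 0.368 and 0.375 times. Of the 17 chromosomes, 7 lay above their share for every bait and 6 below it for every bait. The other 4 changed side: chromosome 2 had 1.04, 0.974 and 0.911 times its share for baits 7, 12 and 15, chromosome 4 had 1.04, 0.965 and 1.18, chromosome 5 had 0.955, 0.946 and 1.02, and chromosome 14 had 1.03, 1.05 and 0.947.

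**Figure D4:**
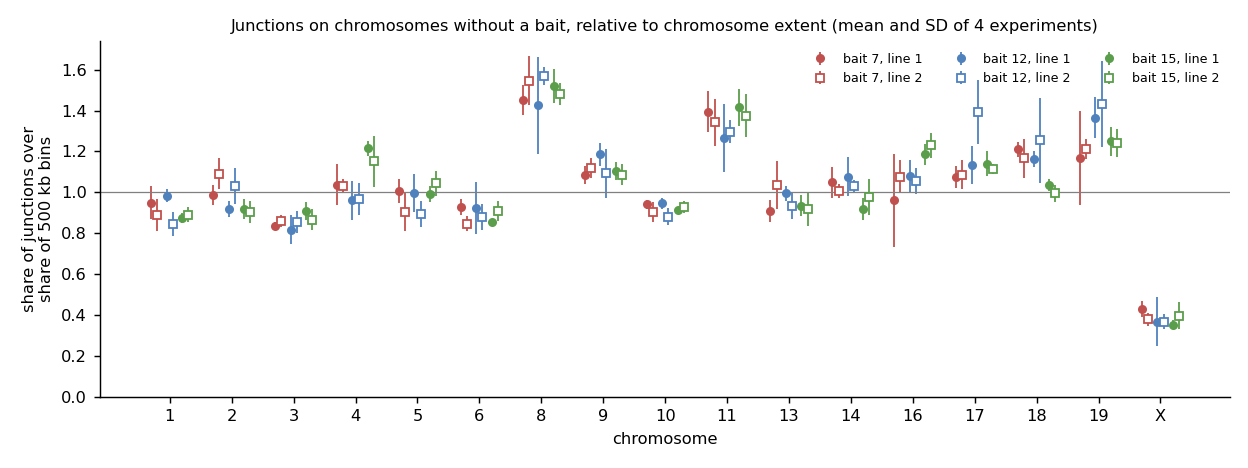
Share of the junctions on chromosomes without a bait that fell on each chromosome, divided by the chromosome's share of the 500 kb bins that hold a junction, as mean and SD of 4 experiments for each bait and line. The line at 1 marks a share in proportion to extent. Chromosome 8 lies at 1.5 for all baits, and the X chromosome near 0.4.

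Some chromosome shares did differ between baits. Of 17 chromosomes, 1 passed for bait 7 against bait 12, or 5.88%, 3 passed for bait 7 against bait 15, or 17.6%, and 3 passed for bait 12 against bait 15, also 17.6% (exact permutation test, Benjamini-Hochberg over 51 comparisons). Chromosome 2 held 8.4% of the junctions of bait 7 and 7.36% of those of bait 15, a difference of 1.04 points (adjusted exact p = 0.0156). Chromosome 4 held 7.18% for bait 7, 6.68% for bait 12 and 8.2% for bait 15, with differences of -1.02 points for bait 7 against bait 15 (adjusted exact p = 0.0357) and of -1.52 points for bait 12 against bait 15 (adjusted p = 0.0156). Chromosome 16 held 4.61% for bait 12 and 5.21% for bait 15, a difference of -0.602 points (adjusted exact p = 0.0156). Chromosome 18 held 4.73% for bait 7, 4.81% for bait 12 and 4.04% for bait 15, so that bait 7 was 0.691 points above bait 15 (adjusted exact p = 0.0156) and bait 12 was 0.766 points above it (adjusted p = 0.0291). Chromosome 17 held 4.53% for bait 7 and 5.29% for bait 12, a difference of -0.763 points (adjusted exact p = 0.0357).

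Most of these chromosome differences went with a few bins. When the 21 bins named in the bin comparison below, with 3.45% of the junctions, were left out, 0 of the 51 comparisons passed by the same exact test, the lowest adjusted p was 0.311, and 6 had an unadjusted p under 0.05. The difference for chromosome 4 between baits 7 and 15 was then 0.485 points, with the opposite sign, and between baits 12 and 15 it was -0.0288 points. For chromosome 2 it was then 0.448 points, for chromosome 16 it was -0.0309 points, for chromosome 17 it was -0.098 points, and for chromosome 18 between baits 7 and 15 it was 0.2 points. Chromosome 18 between baits 12 and 15 moved least, to 0.671 points. The bins had been named because they differed between baits, and leaving them out was chosen after the data were seen. Leaving out 1 experiment ended the call of chromosome 4 for bait 7 against bait 15 in 9 of 24 cases (B, C or D of bait 15 in line 1, any of bait 7 or B or C of bait 15 in line 2, adjusted exact p up to 0.0773). It ended that of chromosome 18 for bait 12 against bait 15 without any 1 of bait 15 in line 2 (up to 0.0925), and that of chromosome 17 without B or C of bait 7 or C or D of bait 12 in line 1, or any of bait 7 or A of bait 12 in line 2 (up to 0.0856).

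At 500 kb most bins held too few junctions to compare, about 1 per bin and experiment. A filter on low counts kept 55 of 4417 bins. A bin could pass this filter through 1 bait alone, so the filter favours bins that differ between baits. The percentages of the 55 that passed, and the adjusted p-values over these bins here and below, are therefore partly set by the filter. The counts on all 4417 bins, given further on, do not rest on it. By edgeR's quasi-likelihood test with Benjamini-Hochberg adjustment, 9 of the 55 (16.4%) passed for bait 7 against bait 12, with 7 higher and 2 lower in bait 7. For bait 7 against bait 15, 17 (30.9%) passed, with 7 higher and 10 lower in bait 7. For bait 12 against bait 15, 12 (21.8%) passed, with 2 higher and 10 lower in bait 12. The median log2 difference over the tested bins was -0.15, -0.33 and -0.34 in these 3 comparisons. The split moved with the scaling. With RLE size factors, under which the median was 0.82, -0.09 and -1.08, it was 15 higher and 1 lower for bait 7 against bait 12, 9 and 9 for bait 7 against bait 15, and 1 and 23 for bait 12 against bait 15. With plain library sizes on the same bins it was 7 and 2, 9 and 9, and 2 and 10. On data simulated from these bins, TMM called some unchanged bins in the comparisons with bait 15, and plain library sizes called fewer. On all 4417 bins with plain library sizes, the counts were 9 (0.204%), 19 (0.43%) and 8 (0.181%), with 7 higher and 2 lower, 10 and 9, and 2 and 6. Leaving out 1 experiment moved the second count to 28 without C of bait 7 in line 1, 26 without C of bait 12 in line 1 and 26 without D of bait 12 in line 2, where 131 to 138 bins passed the filter.

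Apart from 1 bin on chromosome 17 described further on, the bins that differed most held a prey site that 1 bait met and the others hardly met, with 44.8 to 70.9% of the bin's junctions in its busiest 1 kb and more beside it. In the bin of chromosome 4 from 82.5 Mb, bait 7 had 2 and 2 junctions in all in lines 1 and 2, and bait 12 had 3 and 1. Bait 15 had 94, 167, 182 and 93 in line 1 and 73, 156, 173 and 251 in line 2. It held 1.83 and 1.39% of all junctions of bait 15 on chromosomes without a bait, and the groups were far apart. The log2 difference was -6.91 ± 0.50 (SE) for bait 7 against bait 15 (adjusted p = 3.23e-21, edgeR) and -6.80 ± 0.52 for bait 12 against bait 15 (adjusted p = 4.45e-20). No experiment of baits 7 and 12 had more than 2 junctions in this bin. The junctions of bait 15 spread over 7 neighbouring windows of 1 kb, which held 24, 42, 73, 135, 674, 98 and 39 of them and none of the other baits. With the busiest 1 kb of every bin left out, the log2 difference was still -5.62 for bait 7 and -5.65 for bait 12 against bait 15 (edgeR adjusted p = 5.74e-14 and 1.25e-13).

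Bait 7 had sites of its own. The bin of chromosome 2 from 161.5 Mb had 13, 21, 21 and 9 of its junctions in line 1 and 27, 47, 14 and 19 in line 2, against 3 and 3 of bait 12. Bait 15 had 11 there in line 1 and 35, 2, 5 and 29 in line 2, where A and D again stood apart, and none of these lay in the busiest 1 kb of the bin. The log2 difference of bait 7 was 4.37 ± 0.47 against bait 12 and 2.79 ± 0.34 against bait 15 (adjusted p = 1.13e-12 and 1.87e-11, edgeR). The bins of chromosome 1 from 109.0 Mb (64 and 57 junctions of bait 7), chromosome 18 from 14.5 Mb (59 and 69) and chromosome 11 from 113.0 Mb (57 and 99) were higher in bait 7 than in both other baits, by log2 differences of 3.12 to 5.10. With the busiest 1 kb of every bin left out, these 4 bins still passed against both other baits, by 1.24 to 3.04. For bait 15 the bins of chromosome 16 from 92.5 Mb (135 and 184 junctions) and from 50.5 Mb (102 and 120), chromosome 11 from 69.0 Mb (75 and 93) and chromosome 6 from 72.0 Mb (64 and 96) were higher than in both other baits. Without the busiest 1 kb, those of chromosomes 16 and 11 still passed, by log2 differences of -3.69 to -1.92, and that of chromosome 6 held too few junctions to pass the filter.

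On chromosomes without a bait, no 1 kb window with 20 junctions or more had 90% or more of them from bait 12. Its strongest bin, on chromosome 17 from 39.5 Mb, was one that all 3 baits met. It held 27 and 42 junctions of bait 7 in lines 1 and 2, 134 and 86 of bait 12, and 47 and 85 of bait 15, with more in bait 12 although its pools are not the deepest. As a share of the junctions on chromosomes without a bait, that was 0.248 and 0.261% for bait 7, 0.709 and 0.889% for bait 12, and 0.16 and 0.181% for bait 15. The log2 difference was -1.98 ± 0.31 for bait 7 against bait 12 and 2.19 ± 0.29 for bait 12 against bait 15 (adjusted p = 1.12e-07 and 1.24e-09, edgeR). The busiest 1 kb of this bin held only 19.5% of its junctions, but most of them lay close together. The 1 kb windows from 39980 to 39985 kb held 71, 82, 76, 53, 43 and 73 of its 421 junctions. Bait 12 had 36, 50, 38, 35, 22 and 36 of these, the most of any bait in each window. These positions are those of the deposited alignments. Whether the same letters also occur elsewhere in the genome, a bait chromosome included, was not tested.

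Some bins past the threshold held no narrow site. Those of chromosome 5 from 132.5 Mb, chromosome 19 from 31.0 Mb and chromosome 8 from 117.0 Mb had 3.26% or less of their junctions in the busiest 1 kb, and bait 15 had the most junctions in each. On chromosome 19, A and D of bait 15 in line 2 had 59 and 37 junctions, against 4 and 3 in B and C and 3 to 4 in line 1. On chromosome 5 they had 47 and 46, against 11 and 12 in B and C, and on chromosome 8 they had 46 and 28, against 6 and 8. None of the 3 passed on all 4417 bins with plain library sizes (edgeR adjusted p = 0.283 to 0.619). Without the 4 experiments set apart, chromosome 5 had a log2 difference of -1.18 for bait 7 (edgeR adjusted p = 0.0703) and -1.42 for bait 12 against bait 15 (adjusted p = 0.0357), and chromosome 8 had -1.07 for bait 12 against bait 15 (adjusted p = 0.198). The bin of chromosome 19 then held too few junctions to pass the filter.

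Narrow sites were then listed over the whole genome, as 1 kb windows with 20 junctions or more, 90% or more of them from 1 bait, and more than 5 Mb from that bait's own break. There were 30 such sites, and 1 of them was the bait 12 break itself, met by bait 15. Of the other 29, 10 belonged to bait 7 with 720 junctions within a 5 kb span, 1 to bait 12 with 56, and 18 to bait 15 with 2839. The other baits together had 12 junctions at these 29 sites. In 26 of them every one of the bait's 8 experiments had a junction, and 28 were met in both lines. Since the rule chose them for being met by 1 bait, that contrast is a description and was not tested.

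At 23 of the 29 sites both strands held 20% or more of the junctions. In these, 65.2 to 98.3% of the junctions pointed away from the point where the strand switched. That point was placed where the most junctions point away, so the share can hardly fall below that of the commoner strand. It is a description and was not tested. A break whose 2 ends are both joined gives junctions that point away from it on both strands. The lowest value, at a bait 7 site on chromosome 14, came from 8 junctions on the plus strand and 15 on the minus strand. Only 4.35% of its junctions lay within 1 kb of its strand switch, so it does not show this pattern. The strongest were the site of bait 15 on chromosome 4 (507 junctions on the plus strand and 512 on the minus strand), that on chromosome 15 itself (183 and 112), 1 on chromosome 16 (135 and 139), 1 on chromosome 7 (105 and 116) and another on chromosome 16 (102 and 83). For bait 7 they were those on chromosome 2 (69 and 73), chromosome 11 (57 and 67), chromosome 18 (37 and 79) and chromosome 1 (49 and 67). The other 6 sites were one-sided. Those of bait 15 on chromosomes 10 and 16 had 47 and 29 junctions at 5 and 6 positions. That of bait 7 on chromosome 8 had 25 at 5 positions. That of bait 7 on chromosome 4 had 41 at 13 positions, all in line 2, with 28 in experiment C. Those of bait 15 on chromosomes 12 and X had 79 and 26 at 30 and 12 positions, and their best matches had the same letters. Whether these sites are breaks was not tested.

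The letters at these sites were read from the deposited reads and set against the 24 letters of each bait. Of the 29 sites, 26 were searched, within 150 bases of the strand switch. The best match to the letters of the site's own bait had 10 to 20 of 24 identical bases, with a median of 15.5, and the best match to the other baits' letters had 9 to 15, with a median of 12.5. At 13 sites the own match exceeded every match to another bait seen at any site, and at 18 it exceeded both others at the same site. At 15 sites the strand switched inside the own match. Those 15 had 14 to 20 identical bases, and 13 of them had NGG within the last 4 letters. It was absent from the strongest site, that of bait 15 on chromosome 4 with 1019 junctions, and from the first chromosome 7 site printed below. The bait letters end in GGG, so choosing the best match favours NGG, and its rate by chance was not tested. At the other 11 the switch lay outside, and the match had 10 to 13. The letters around the switch were not read equally well. Each of the 15 sites had 249 or more bases read. Among the 11, those with 32, 53, 60, 74, 111 and 138 bases read had matches of 10 to 13. Those with 236 to 300 bases read had 12 or 13. Whether unread letters lowered the matches was not tested.

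All 8 sites with 18 or more identical bases are printed here to be set beside the bait letters above, with capitals for the bases identical to those of the bait named. Some positions rest on few reads, at the least 1 for chromosomes 1, 5 and 7 and 2 to 9 for the others.
chromosome 4 site of bait 15 (chr4:82963081-82963104, + strand): CAAGGcCAAGGTGAACACaTcGaG
chromosome 5 site of bait 15 (chr5:123902508-123902531, - strand): tAAGGagAAGGTGAACACGgAGGa
chromosome 16 site of bait 15 (chr16:50963883-50963906, - strand): tAAGGTCAAGGcaAACAtGTgGGt
chromosome 6 site of bait 15 (chr6:72386440-72386463, + strand): tccGGTCAAGaTGAACACcTtGGG
chromosome 7 site of bait 15 (chr7:35474117-35474140, + strand): CAAGGcCAAGaTGAACACtTcaGc
chromosome 17 site of bait 15 (chr17:27094542-27094565, + strand): CAAGGcCAAGGTGAgCACtgtGGc
chromosome 2 site of bait 7 (chr2:161808229-161808252, - strand): tgGaTATGCAGTGGAGCAtATGGG
chromosome 1 site of bait 7 (chr1:109162744-109162767, - strand): agttTATGCAGTaGAGCACATGGG
Their own matches have 20, 19, 18, 18, 18, 18, 20 and 19 identical bases in the order shown. The strongest sites of bait 15 were not all among them. Those on chromosome 15 (295 junctions) and on chromosome 16 (274) had 17 and 16 identical bases. Another site of bait 15 on chromosome 7, with 221 junctions and none of another bait, had a best match of 13 bases, within the range of the matches to other baits, and its strand switch lay 50 bases from it.
other chromosome 7 site of bait 15 (chr7:109864320-109864343, - strand): aAAtGTtAAGtatgAatCaTAGGt
The single site of bait 12, on its own chromosome with 56 junctions, had a match of 12 bases to its own letters and 13 to those of bait 7.

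**Figure D5:**
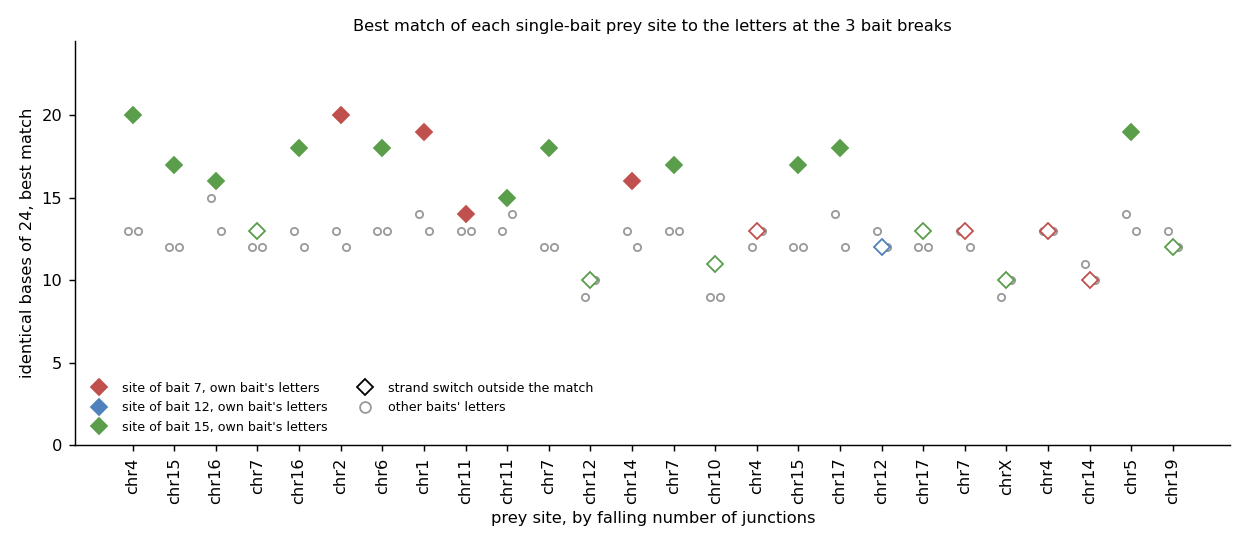
Identical bases, of 24, in the best match of each of 26 prey sites to the letters at its own bait's break (diamonds, coloured by bait) and at the other baits' breaks (grey circles), with sites ordered by number of junctions. Filled diamonds mark sites where the prey strand switches inside the match. The filled diamonds lie at 14 to 20 and the open ones at 10 to 13. Some open diamonds rest on few bases read around the switch, at the least 32.

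A pair of sites of bait 15 could be placed beside named genes by reads that hold stretches of a RefSeq promoter (table of assembly GRCm38.p6, matched by letters and not by coordinates). At the site on chromosome 11, between junction positions 69392722 and 69393918, 49 reads held letters of the promoter of Wrap53, whose protein guides telomerase RNA, and 10 held letters of the promoter of its neighbour Trp53, the gene of p53. At the site on chromosome 6, between positions 72388012 and 72388664, 7 reads held letters of the promoter of the non-coding RNA gene Particl and 2 those of 4933431G14Rik. All of these reads came from bait 15, and the strand switch of the chromosome 6 site lay at position 72386456. Other promoters were matched by 3 reads or fewer in a bin and are not named, among them 1 read at the bait 7 site of chromosome 14. Only the bins named above were searched in this way, and no mm9 annotation was used here.

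Across the whole no-bait landscape, likeness between pools was measured as the correlation of log2 CPM (junctions scaled to the same total per pool), as a description, over bins that share the depth of their pools. Over the 55 bins kept by the filter, the planned set, the same bait in the other line gave 0.57, 0.75 and 0.62 for baits 7, 12 and 15 (Pearson). Other baits in the same line gave -0.39 to 0.26 there. A bin could pass that filter through 1 bait alone, so these values favour likeness within a bait. Over all 4417 bins, the same bait in the other line gave 0.25 for bait 7, 0.24 for bait 12 and 0.55 for bait 15. Other baits in the same line then gave 0.23 to 0.35. For baits 7 and 12 the value between lines lay inside the range between baits, and for bait 15, which has the deepest pools, it lay above it. Leaving out the busiest 1 kb of every bin gave 0.27, 0.24 and 0.50 for the same bait in the other line.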

How the data were processed

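Genomic DNA was made into libraries by linear amplification-mediated PCR HTGTS, per the labels' protocols, and reads were aligned with Bowtie2 to mm9, per the submitters' processing notes. For the junction caller, its filters and all versions, the sources used here give nothing. In the 6 deposited tables there is 1 row per junction read, with no normalised value, so every count here is a count of deposited rows, with each read name counted once per table. Experiments A to D and the sequencing run were read from the table's own columns and read names.

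Shares and medians were worked out per experiment. The bait chromosome was split at the break, and 10 kb and 5 Mb set the near zones. Baits were compared within lines with a two-sided exact permutation test (4 against 4 in each of 2 lines, 4900 arrangements, threshold 0.05 after Benjamini-Hochberg adjustment within position, strand, structure or chromosome). Bins of 500 kb were tested with edgeR 4.0.16 in R 4.3.3 (quasi-likelihood, TMM, filter minimum count 5, all 24 experiments in 1 fit), and DESeq2 1.42.0 was an alternative. TMM factors ran from 0.551 to 1.61 on these sparse bins. Bins were named as up to 10 narrow (50% or more of the junctions in the busiest 1 kb) and up to 10 other bins per comparison, by the smallest adjusted p with the same sign in both lines. Site letters are the base seen in 80% or more of reads. The scripts were tested on simulated data. Python 3.11.15 was used.

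The pairs share baits, since each bait enters 2 comparisons. Letters A to D did not pair experiments across baits: the correlation of their deviations ran from -0.31 to 0.16 and exceeded 0.1 in 5 of 24 pairs. The compared parts, measures and bins were chosen with earlier results of these data known. Junctions are PCR products without molecular identifiers, so counts are not independent molecules. The planned comparison by gene was not run, since no mm9 annotation was used here.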

Additional observations from a re-analysis of the deposited data

Results flagged for a closer look

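In groups of 4 experiments, chance alone sets 1 apart in about 1 in 20 groups. Of 222 groups screened, 13 had an experiment whose gap to the nearest other was most of the group's range. Experiment B of bait 12 in line 1 had 39.3% of junctions with an overlap of 2 bases or more on chromosomes without a bait, against 63.6 to 65.4% in the others of its group, and 24.1% direct joins against 6.56 to 7.08%. Experiment C of bait 12 in line 2 stood apart in 4 measures. Its decay slope was -1.13, against -1.18 to -1.17. Its share of prey on the bait strand on the bait side was 41.8%, against 32.1 to 32.3%. Its median loss of bait bases within 10 kb was 17, against 11 to 12, and its share with none lost was 7.91%, against 11.4 to 11.7%.

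For bait 7 in line 2, experiment D had 82.4% of prey beyond the break on the bait strand, against 77.4 to 77.7%, and experiment C had 55.3% on chromosomes without a bait, against 53 to 53.2%. For bait 7 in line 1, experiment A had 16.2% of junctions with inserted bases, against 14 to 14.3%. For bait 15 in line 1, the median loss on chromosomes without a bait was 7 bases in A and 8 in the others, and within 10 kb it was 8 in B and 7 in the others. Chromosome 8 held 8.62% of the junctions of A of bait 12 in line 2, against 9.06 to 9.14%, and chromosome 19 held 3.02% of those of B of bait 7 in line 2, against 3.26 to 3.3%.

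Bait 15 had junctions at the break of bait 12, outside the chromosomes compared above. Within 1 kb of that break it had 24 junctions in line 1, 22 of them in experiment A, and 12 in line 2, 11 of them in experiment A. Every other pair of a bait and another bait's break had 0 or 1 junction in a line. Their source was not tested.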

How the results depend on the processing

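Differences are bait 7 minus bait 12 (7-12), bait 7 minus bait 15 (7-15) and bait 12 minus bait 15 (12-15), in points unless said otherwise. Over all alternatives of the shares, slopes and medians, 1597 values kept direction and call, 117 lost the call, 43 gained it and 22 had the opposite sign, 3 of them of differences that had passed, and of the named bins 1233 kept it, 63 lost it and 0 reversed. Where the cause of a change is not given by the setting itself, it was not tested.

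The 22 opposite signs belong to 16 differences. With the break at the steepest relative fall, chosen after seeing the data, 7-12 was 1.9 on chromosomes without a bait and 2.78 within 10 kb, 12-15 was -10.7 on chromosomes without a bait, and the median loss was 6.38 bases for 12-15, and for 7-12 -0.25 bases on chromosomes without a bait and -1.88 within 10 kb. With losses kept to the range common to all baits, also chosen after seeing the data, ends without loss within 10 kb gave 0.574 for 12-15, and the median loss gave 5.38 and 4 bases for 7-12 on chromosomes without a bait and within 10 kb, and -0.625 and 0.25 bases for 12-15. The 3 signs that turned after a pass are 1.9, 2.78 and 0.574. The other 19 are of differences that had not passed, and of these only the -10.7 passed.

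With each position and strand counted once, an overlap of 2 or more gave 1.77 for 7-15 and -5.92 for 12-15 on chromosomes without a bait, and 4.6 for 7-12 and 9.27 for 12-15 within 10 kb. Within 10 kb it also gave -2 for direct joins 12-15, -2.8 for insertions 7-12 and 2.62 bases for the median loss 7-12, all past the threshold. An overlap of 4 or more gave 1.41 for 7-15. Over 100 kb to 10 Mb the slope was -0.138 for 7-12 and -0.0689 for 7-15, and the telomere side 0.971 for 12-15, and the slope 12-15 turned to 0.0691.

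Without the 4 experiments set apart, calls ended for 12-15 in the telomere side (6.75), the strand on the bait side (3.65), direct joins on chromosomes without a bait (1.23) and insertions within 10 kb (-2.02), for 7-15 in insertions on chromosomes without a bait (-0.834), and for the 1 chromosome of 7-12 (0 left). Calls were gained for 12-15 in the slope (-0.108) and the median loss (5.04 bases). The sign turned for ends without loss 12-15 on chromosomes without a bait (-2.56) and for the side beyond the break 7-15 (-0.516).

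Each line alone was judged by the unadjusted p, since 70 arrangements cannot give less than 0.0286. The main calls were made after adjustment, so a call gained in 1 line can come from the unlike threshold alone. In line 1 alone, calls ended for 12-15 in the share without 5 Mb (2), within 10 kb (1.67), the telomere side (4.8), strand on chromosomes without a bait (-1.89) and insertions within 10 kb (-1.61). They ended for 7-15 within 10 kb (1.96), in strand on the bait side (-3.24) and elsewhere (1.41), in direct joins (0.344) and in insertions (-1.44), and for 7-12 in strand on the bait side (-8.22). Calls were gained in overlap for 12-15 (-9.15, and 4.16 within 10 kb) and 7-12 within 10 kb (3.4), in insertions for 12-15 (3.26) and 7-12 within 10 kb (-2.99), and for 2 chromosomes of 7-12. The sign turned within 10 kb for 7-12 (0.292) and from 10 kb to 5 Mb for 7-12 (-0.732) and 12-15 (0.263). In line 2 alone, calls ended for 7-15 within 10 kb (5.94), in the slope (-0.0946), direct joins (0.546, and -0.71 within 10 kb), insertions (-1.51, and -0.266 within 10 kb) and overlap within 10 kb (2.79). They ended for 12-15 in strand (4.44 on the bait side, -1.05 without a bait), direct joins (1.28), insertions within 10 kb (-1.98) and ends without loss within 10 kb (-2.2), and for 7-12 in overlap (4.38) and insertions (-4.17). Calls were gained for 7-12 in the share from 10 kb to 5 Mb (2.09) and the slope (-0.03), and 1 chromosome was left for 7-15. The sign turned for 7-12 in the share on the bait chromosome (-1.75), strand beyond the break (0.393) and insertions within 10 kb (1.72), and for 12-15 in ends without loss on chromosomes without a bait (-2.06) and direct joins within 10 kb (0.319).

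With the letter as a replicate block, where sign flips over the letters give at least 0.00781, the differences are the same by construction and calls ended for 7-15 within 10 kb (3.95), direct joins (0.445) and insertions (-1.48, and -2.43 within 10 kb), for 12-15 within 10 kb (5.44), telomere side (10.2), direct joins (3.27), insertions within 10 kb (-1.8) and ends without loss within 10 kb (-1.98), and for 7-12 in insertions (-4.44). The chromosome counts under the block were 0, 0 and 0. With that smallest p adjusted over 51 comparisons hardly any chromosome could pass, so these counts do not decide whether the chromosome calls hold. The letters share only a name: 7 of 24 experiments correlated best with their own letter.

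Leaving out each experiment in turn gave these ranges where a call changed or a sign turned. For 12-15 they were 4.17 to 6.41 within 10 kb, -3.72 to -2 from 10 kb to 5 Mb, -0.115 to -0.0648 for the slope, 8.33 to 12.9 for the telomere side, -7.25 to -2.9 for overlap and 2.4 to 4.81 within 10 kb, 1.11 to 4.03 for direct joins and -0.773 to 0.119 within 10 kb, 2.19 to 4.43 for insertions and -2.39 to -1.33 within 10 kb, and 1.54 to 4.54 bases for the median loss. For 7-15 they were 2.68 to 4.93 within 10 kb, 1.24 to 1.97 for overlap, 0.344 to 0.535 for direct joins and -1.75 to -1.24 for insertions. For 7-12 they were -2.4 to -0.825 within 10 kb, -3.58 to -0.665 for direct joins, -5.9 to -3.67 for insertions and 1.58 to 4.58 bases for the median loss. Chromosomes past the threshold ran from 0 to 3 for 7-12 and from 2 to 5 for 12-15, with 5 without C of bait 12 in line 2, and bins of 7-15 from 18 to 28. The sign turned for ends without loss 12-15 on chromosomes without a bait (-2.16 to 2.67, -2.16 without B of bait 12 in line 1), for direct joins 12-15 within 10 kb (0.119 without C of bait 12 in line 2), and for the side beyond the break 7-15 (-0.195 without D of bait 7 in line 1 and -0.264 without D of bait 15 in line 2).

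With the named bins left out, chosen after seeing the data, 0, 0 and 0 chromosomes passed. Bins past the threshold numbered 16 for 7-12 and 24 for 12-15 with RLE size factors, and 16 (15 higher and 1 lower) and 22 (1 and 21) with DESeq2. With no filter but TMM they numbered 43 for 7-15 (9 higher and 34 lower) and 23 for 12-15 (1 and 22), counts that may hold false calls, since this setting called many unchanged bins in both comparisons in simulated data. With the busiest 1 kb of every bin left out they numbered 5, 11 and 6 for 7-12, 7-15 and 12-15. In line 2 alone they numbered 11 for 7-15 and 5 for 12-15. The bins with plain library sizes and no filter, the side beyond the break and the other sets of bins for likeness were also chosen after seeing the data. Depth limits the bins, since 4417 bins shared 1381 to 17462 junctions in an experiment, and a bin that did not pass is not shown to be alike between baits.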
